A study of Mus musculus with 12 samples.

Results

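The proteasome subunit genes were taken as every gene on the array whose symbol begins with Psma, Psmb, Psmc, Psmd or Psme and a digit. The rule found 41 of the 18097 gene symbols of the array, with 60 of its 25697 probes. It includes Psmc3ip, a homologous-pairing protein that is no proteasome subunit, so 40 subunit genes with 59 probes are described. They comprise 17 subunits of the catalytic core (7 alpha, 10 beta), 19 of the regulatory particle (6 ATPases, 13 non-ATPases, among them the assembly chaperones Psmd5, Psmd9 and Psmd10) and 4 subunits of activators. The most intense probe of a gene, by its mean signal over all arrays, stands for the gene.

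RNA from the hippocampus and the cortex of male 3xTgAD mice was measured on Illumina mouse bead arrays. These mice carry mutant human APP and tau transgenes, driven in neurons by a Thy1 promoter, among their alleles, and they model the plaques and tangles of Alzheimer's disease. AMI mice drank amitriptyline, a tricyclic antidepressant, at 100 µg per g of body weight for 4 months from 14 months of age, vehicle mice drank plain water, and tissue was taken at 18 months. Each of the 4 groups (hippocampus AMI, hippocampus vehicle, cortex AMI, cortex vehicle) has 3 arrays, 12 in all. Both treatments were given in the same transgenic background and both groups of mice received BrdU, so no group shows the subunits in mice without the transgenes. The sources used here do not state whether an array holds the RNA of a single mouse or of pooled mice, nor which mouse gave which sample. The p-values therefore measure the spread between these samples, which may be technical.

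The proteasome is the main protease for ubiquitin-tagged proteins in the cytoplasm and nucleus. Alpha subunits form the outer rings and gate of its barrel, and beta subunits form the inner rings, where Psmb5, Psmb6 and Psmb7 cut proteins. Interferon-inducible counterparts (Psmb8 for Psmb5, Psmb9 for Psmb6, Psmb10 for Psmb7) replace them in the immunoproteasome, which makes peptides for antigen presentation and is carried in brain largely by microglia. The regulatory particle binds ubiquitin chains, removes them and unfolds the substrate with a ring of ATPases, while the activators Psme1, Psme2, Psme3 and Psme4 open the barrel without ubiquitin. In neurons, proteasomes limit the build-up of tau and other aggregation-prone proteins.

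Of the 40 subunits, 34 were detected on all 12 arrays, where detected means a detection p-value of 0.05 or less. Psma1, Psma3 and Psma6, all subunits of the alpha ring, and Psmc6, an ATPase of the regulatory ring, were detected on none. Psmb8 was detected on 2 of 6 hippocampal and on 0 of 6 cortical arrays. The lid subunit Psmd6 was detected on 6 of 6 hippocampal and 2 of 6 cortical arrays. Over their 50 bases, the probes of Psma1, Psma3, Psma6 and Psmc6 held less G and C than the subunit probes detected on all 12 arrays. Whether this is why they were not detected was not tested. The first 30 of the 50 bases of some probes are shown here with G and C in capitals, first the undetected subunits and then detected ones of the same rings, followed by detected and undetected probes of 1 gene:
Psma1, undetected: ataCCaatGtttttatatGaaGaaaataaG
Psma3, undetected: taatattaaaatataGattGatGtttGatt
Psma6, undetected: GaGtCaaCCaGCttCCttGaaaaGaaaGtG
Psmc6, undetected: GGtaCaGaaGaaaGtCatGtttGGtGatGt
Psma2, detected on all arrays: GGGattaCCtGGCtGCCataGCGtGatGaa
Psma4, detected on all arrays: GCGaaatGaCtCtGaaGtCaGCGCttGCtC
Psmc2, detected on all arrays: CGCCaaattCaGCGCtaCtCCCCGCtaCat
Psmb2, detected on all arrays: GCGGGaCtCCtaaCGtCaCGtCCttCCCtC
Psmb2, undetected: tttGaCGttCaCtCttGataGatGGttaat
Psmd5, detected on all arrays: CaGaCtGCtttGtGtGtCtCCattCtGGaG
Psmd5, undetected: CtaaaaaataaGtCatttaGaatCatCGaa

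Over its 50 bases, the probe of Psma1 held 24% G and C, that of Psma3 22% and those of Psma6 and Psmc6 38% each. The 44 subunit probes detected on all 12 arrays held 44% to 60%, with a median of 54%. All 6 subunit probes under 40% G and C were detected on no array. Within single genes, the undetected Psmb2 probe held 28% against 58% in the probe used, and the undetected Psmd5 probe held 18% against 54%. The same held for the array as a whole, on which 89.7% of the 2143 probes under 40% G and C were detected nowhere, against 36.1% of the 23554 other probes. Of the 53 subunit probes with 40% or more, 3 (5.66%) were detected on no array, namely further probes of Psmd2 (58%), Psmd6 (46%) and Psmd11 (44%). The probe used for Psmd2 also held 58% and was detected on all 12 arrays. Over the first 30 bases alone the separation was less clean than in the stretches shown. There the undetected Psma6 probe held 43.3%, as did the probe used for Psmc5, which was detected on all 12 arrays. Psma1, Psma3, Psma6, Psmc6 and Psmb8 could not be compared, and the comparisons cover 35 subunits in hippocampus and 34 in cortex. The difference is Psmd6, which passed detection on at least 3 of 6 arrays only in hippocampus.

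**Figure D1:**
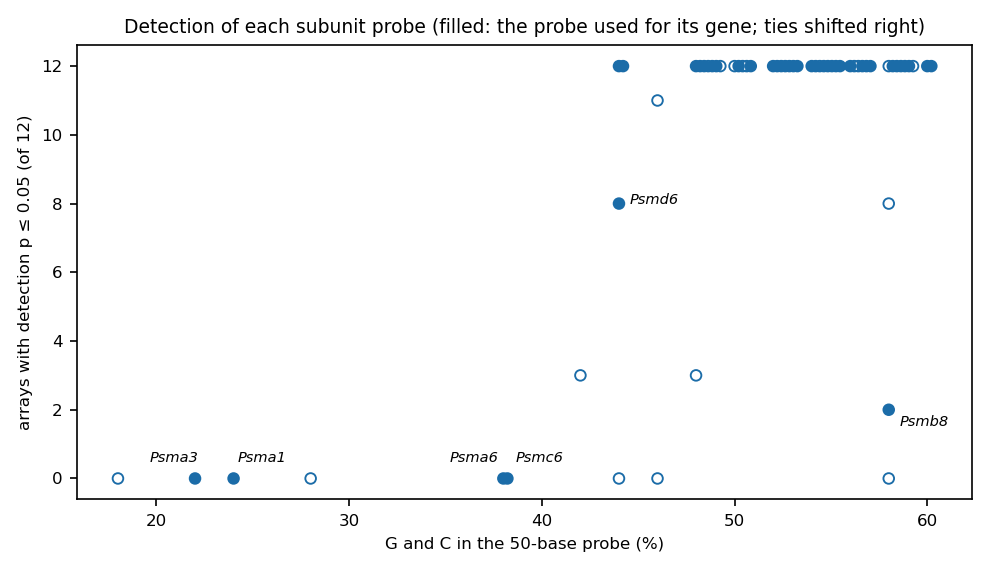
Share of G and C bases (percent of 50 bases, x axis) of each of the 59 subunit probes against the number of arrays, of 12, on which the probe was detected (y axis). The 6 probes under 40% all lie at 0 arrays, and the 44 probes at 12 arrays lie between 44% and 60%.

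Signals are given on the log2 scale after z normalization over all probes of an array, so that 0 is the mean of an array. A difference of 1 is close to a doubling, and exactly that only on an array whose SD equals the mean SD. All values of single arrays are on a scale shared by the 12 arrays and are listed from replicate 1 to replicate 3. Differences come from the fit of each comparison, whose scale departs from the shared one by a constant factor, and are given ± SE with 3 arrays against 3. The adjusted p is that of limma with Benjamini-Hochberg adjustment over all tested probes. Between 49.0% and 51.7% of probes were detected per array, and in hippocampus both arrays numbered 1 had a narrower spread of log2 signals (SD 1.51 for AMI, 1.53 for vehicle) than the other 4 (1.71 to 1.85). In cortex the SD ran from 1.42 on vehicle array 3 and AMI array 3 to 1.68 on AMI array 2. The labelled tissues differed in most of their markers, and the cortical arrays also held striatal markers, given below. All 3 dentate granule cell genes were higher in hippocampus in both treatments, and all tested markers of cortex were lower there. Of the 3 hippocampal pyramidal cell genes, Spink8 and Fibcd1 were higher in hippocampus in both treatments, while Wfs1 was lower in vehicle mice. Of the neuron markers, Snap25 and Nefl were detected on no array.

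Compared to vehicle-treated mice, AMI-treated mice showed no subunit past the adjusted threshold of 0.05 in either tissue. In hippocampus, 0 of 35 subunits passed against 0% of all 13163 tested probes, and the smallest adjusted p was 0.9996. In cortex, 0 of 34 passed against 0% of 12944 probes, with a smallest adjusted p of 0.756. The study's methods name cutoffs of a p of 0.05 or less, an absolute z ratio of 1.5 or more and a false discovery rate under 0.3. With these cutoffs and the p of limma, 0 subunits passed in both tissues, against 0% of probes in hippocampus and 0.0232% in cortex. These are not the study's own calls, whose p did not come from this fit. The study lists Psme3, Psmc5 and Psmb2 as changed, and it reports the proteasome pathway as populated by its changed hippocampal genes. The tissue and direction of that listing are not given here, so the values below are not compared with it. The median difference of the subunits was -0.04 in hippocampus (15 higher, 20 lower) and 0.01 in cortex (18 higher, 16 lower), beside 0.01 and 0.02 over all tested probes. With arrays centred on their median, 27 of 35 subunits in hippocampus and 27 of 34 in cortex were higher in AMI mice, with medians of 0.07 and 0.11, but that scaling also moved the median of all tested probes, to 0.07 and 0.06.

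At an unadjusted p of 0.05 or less, 2 of 35 subunits (5.71%) passed in hippocampus, Psme3 and Psmd8, against 2.35% of all tested probes. The number was 8 without AMI array 1, where the background was 7.29%, and 1 without vehicle array 2, where it was 1.46%. The treatments separated without overlap for 5 subunits (14.3%), which were Psma7, Psmb2, Psmd1, Psmd8 and Psme3, against 7.89% of probes. These fits in hippocampus used no pairing of arrays. With the replicate number as a block, 4 subunits (11.4%) had a p of 0.05 or less, Psmb2, Psmd6, Psmd8 and Psme3, against 8.08% of probes. In cortex, 1 of 34 subunits (2.94%) had a p of 0.05 or less, Psmd5, against 6.28% of probes, and there were 2 without AMI array 2 (background 5.08%) or without vehicle array 2 (2.90%), 3 without AMI array 3 (6.53%) and 5 without vehicle array 3 (15.1%). In cortex 3 subunits (8.82%) did not overlap, Psmc3, Psmd2 and Psmd5, against 12.2%. The counts at an unadjusted p moved with the array left out, as the background did.

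By role, the 4 tested alpha subunits (Psma2, Psma4, Psma5, Psma7), which carry the gate, differed by -0.12 to 0.07 in hippocampus and 0.01 to 0.15 in cortex. The 9 tested beta subunits differed by -0.23 to 0.18 and by -0.09 to 0.16. For the 5 tested ATPases the range was -0.18 to 0.11 in hippocampus and -0.11 to 0.09 in cortex. The non-ATPases ran from -1.39 to 0.22 and from -0.93 to 0.38, with Psmd8 at the lower end in both tissues and Psmd6 in hippocampus and Psmd5 in cortex at the upper end. The activators ran from -0.07 to 0.40 in hippocampus and from -0.31 to 0.10 in cortex, with Psme3 at the upper end in one tissue and at the lower end in the other.

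**Figure D2:**
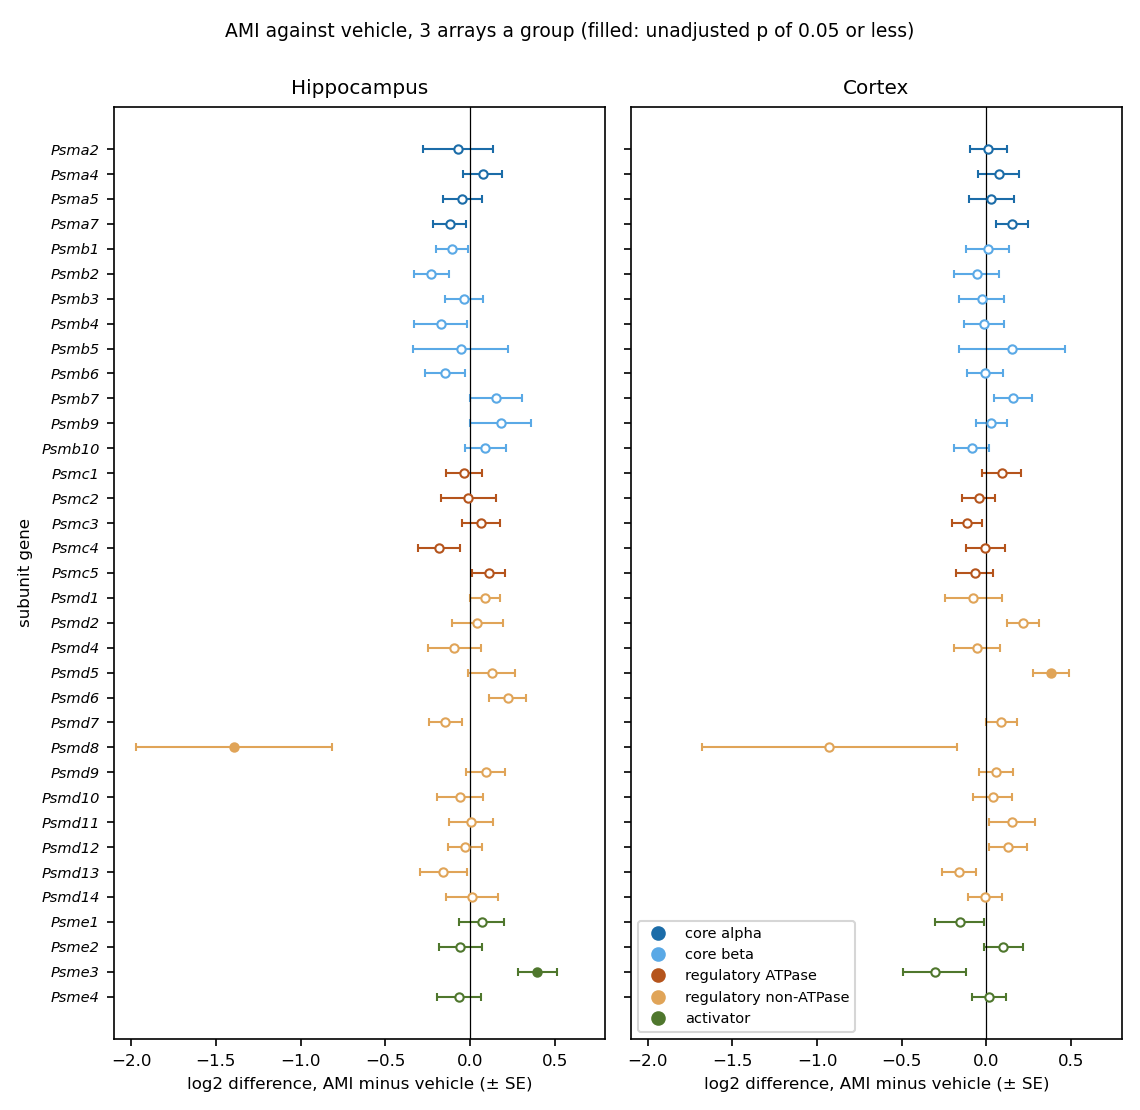
Log2 difference of AMI minus vehicle arrays (x axis, bars are SE, 3 arrays against 3) for each tested subunit (y axis, grouped by role) in hippocampus and in cortex. Most subunits sit close to 0, and Psmd8 and Psme3 in hippocampus and Psmd5 in cortex have an unadjusted p of 0.05 or less.

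Psme3 encodes the activator that forms a cap on proteasomes of the nucleus and degrades proteins such as cell-cycle inhibitors without ubiquitin. In hippocampus its values were 2.41, 2.43 and 2.39 on the vehicle arrays and 2.79, 2.61 and 2.96 on the AMI arrays. Every AMI array exceeded every vehicle array, and the vehicle arrays lay within 0.04 of each other. The difference was 0.40 ± 0.11 (unadjusted p = 0.00736, adjusted p = 0.9996). It was 0.41 (unadjusted p = 0.0226) without both arrays numbered 1. In cortex the values were 3.23, 3.18 and 2.66 on the vehicle arrays and 2.75, 3.00 and 2.35 on the AMI arrays. There the groups overlapped and the difference ran the other way, at -0.31 ± 0.19 (unadjusted p = 0.139).

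The AMI difference of Psme3 was 0.70 ± 0.24 larger in hippocampus than in cortex (unadjusted p = 0.0132, adjusted p = 0.9999 for the tissue by treatment interaction). No subunit of 34 passed the adjusted threshold for this interaction, against 0% of 12430 probes. Psme3 was the 1 subunit (2.94%) with an unadjusted p of 0.05 or less, against 3.03% of probes. The direction of its difference was the same under every normalization tried. With median centring the p was 0.0540 in hippocampus and 0.118 for the interaction.

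Between treatments in hippocampus, the 6 oligodendrocyte markers were all lower in AMI mice, with a median of -0.49. Cnp, Mag and Mog had an unadjusted p of 0.05 or less, against 2.35% of all probes, and 0 of the 6 passed adjustment. The mean log2 level of the list ran from 3.41 to 3.79 on AMI and from 3.76 to 4.24 on vehicle arrays, and none of the 6 was undetected. Choroid plexus markers were uneven, with a summed signal of 50874 on vehicle array 3 against 1216 to 5368 on the other hippocampal arrays. In cortex all 4 tested striatal markers were lower in AMI mice, with a median of -0.41. Of them 2 had an unadjusted p of 0.05 or less, against 6.28% of probes, and 0 passed adjustment. The part of these cells in the subunit values was not tested. In tissue RNA, fewer cells of a type and less RNA per cell cannot be told apart.

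The promoter of Psme3 is shown from 250 bases before to 50 bases after the RefSeq transcription start (GRCm38.p6, chr11:101315963-101316262, plus strand), with a CCAAT box, read on the opposite strand, in capitals:
Psme3: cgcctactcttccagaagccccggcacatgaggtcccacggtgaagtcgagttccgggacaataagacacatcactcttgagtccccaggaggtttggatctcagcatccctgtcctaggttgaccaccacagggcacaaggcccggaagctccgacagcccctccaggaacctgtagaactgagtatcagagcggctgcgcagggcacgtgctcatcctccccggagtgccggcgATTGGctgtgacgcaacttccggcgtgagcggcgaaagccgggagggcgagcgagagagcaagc

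Psmd8, a lid subunit of the regulatory particle, varied far more between arrays of the same group than other genes. Its hippocampal values were 3.12, 3.15 and 2.56 on the vehicle arrays and 0.10, 2.53 and 2.23 on the AMI arrays. AMI array 1 lay more than 2 log2 units under the other 5. It had a raw signal of 113.4 against 800.5 to 1660.9. In cortex the values were 3.04, -0.05 and 2.19 on the vehicle arrays and -0.17, 0.29 and 2.11 on the AMI arrays. AMI arrays 1 and 2 and vehicle array 2 were low there, with signals of 129.2, 213.2 and 134.9 against 469.2 to 1070.9 on the other 3, so low arrays occurred in both treatments.

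The probe of Psmd8 was detected on all 12 arrays, and its residual SD lay at percentile 99.87 of the tested probes or above in all pairwise comparisons. AMI minus vehicle was -1.39 ± 0.58 in hippocampus (unadjusted p = 0.0403, adjusted p = 0.9996) and -0.93 ± 0.75 in cortex (unadjusted p = 0.25). Without AMI array 1 the hippocampal difference was -0.60 (unadjusted p = 0.0168). In 7 of 18 alternatives the unadjusted p of limma or of the methods' t-test in hippocampus was above 0.05, at most 0.170. No other Psmd8 probe is on the array. The first 30 bases of the probe were GGGaCtCttCtatCCaGCtGtGGatGCGtt, with G and C in capitals, and 56% of its 50 bases are G or C.

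Psmd5 is a chaperone that holds ATPases while the regulatory particle is assembled. In cortex its values were -0.30, -0.49 and -0.14 on the vehicle arrays and 0.15, 0.04 and 0.10 on the AMI arrays. Every AMI array exceeded the vehicle arrays, and the difference was 0.38 ± 0.11 (unadjusted p = 0.00621, adjusted p = 0.756). Its unadjusted p stayed at or under 0.0274 in each of the 16 alternatives in which it was tested. In hippocampus the values were -0.09, 0.03 and 0.06 on the vehicle arrays and -0.16, 0.29 and 0.24 on the AMI arrays, which overlapped, with a difference of 0.13 ± 0.14. The probe is dim, near the mean of all probes of an array, and background was not subtracted, which compresses its differences. The other assembly chaperones did not share the difference in cortex, which was 0.06 ± 0.10 for Psmd9 and 0.04 ± 0.12 for Psmd10.

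Psmb2, a non-catalytic beta subunit, had hippocampal values of 4.56, 4.38 and 4.38 on the vehicle arrays and 4.33, 4.17 and 4.17 on the AMI arrays. The AMI arrays all lay below the vehicle arrays by a small margin, with a difference of -0.23 ± 0.10 (unadjusted p = 0.0594). In cortex it was -0.06 ± 0.13. Its second detected probe differed by -0.10 ± 0.10 in hippocampus and 0.02 ± 0.13 in cortex. Psmc5, an ATPase of the unfolding ring, had values of 3.54, 3.71 and 3.59 on the vehicle arrays and 3.69, 3.74 and 3.73 on the AMI arrays in hippocampus, which overlapped (difference 0.11 ± 0.10, unadjusted p = 0.285). Its difference in cortex was -0.07 ± 0.11.

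**Figure D3:**
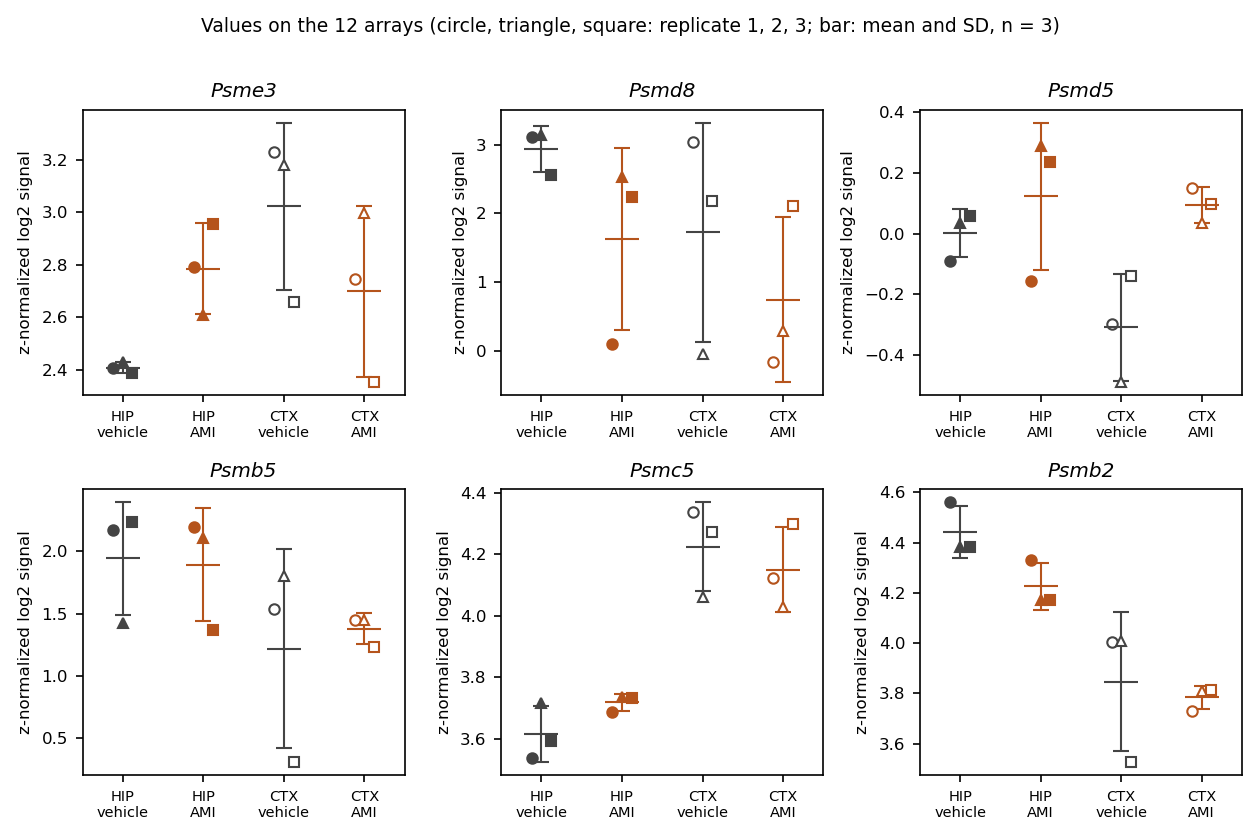
Normalized log2 signal (y axis) of Psme3, Psmd8, Psmd5, Psmb5, Psmc5 and Psmb2 on each of the 12 arrays, by tissue and treatment (x axis). Symbols mark the replicate number, and bars the mean and SD of 3 arrays. The 3 vehicle values of Psme3 in hippocampus (2.39 to 2.43) lie under all AMI values, and Psmd8 has arrays near 0 in both tissues.

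Among the catalytic subunits of the constitutive core, Psmb5, which carries the chymotrypsin-like activity, had hippocampal values of 2.17, 1.42 and 2.24 on the vehicle arrays and 2.19, 2.11 and 1.37 on the AMI arrays. Its cortical values were 1.54, 1.80 and 0.31 on the vehicle arrays and 1.45, 1.45 and 1.23 on the AMI arrays. A single low array occurred in each hippocampal group and in the cortical vehicle group, so the treatments overlapped in both tissues. Differences were -0.05 ± 0.28 and 0.15 ± 0.31, and the residual SD was at percentile 98.4 of the tested probes in hippocampus and 99.4 in cortex. Psmb6, the caspase-like subunit, had values of 4.27, 4.11 and 4.21 on the vehicle arrays and 4.15, 3.86 and 4.16 on the AMI arrays in hippocampus and of 3.88, 3.86 and 3.61 on the vehicle arrays and 3.83, 3.66 and 3.84 on the AMI arrays in cortex. Both overlapped, with differences of -0.15 ± 0.12 and -0.01 ± 0.10. Psmb7, the trypsin-like subunit, had 3.63, 4.02 and 3.71 on the vehicle arrays and 3.71, 3.95 and 4.14 on the AMI arrays in hippocampus and 4.18, 4.05 and 3.85 on the vehicle arrays and 4.31, 4.16 and 4.10 on the AMI arrays in cortex, with differences of 0.15 ± 0.15 and 0.16 ± 0.11.

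The interferon-inducible counterparts gave no adjusted call for treatment either. Psmb8, the counterpart of Psmb5, had hippocampal values of -0.83, -0.68 and -0.79 on the vehicle arrays and -0.92, -0.81 and -0.58 on the AMI arrays, close to the level of undetected probes, and was not tested. Its cortical values were -0.77, -1.03 and -0.79 on the vehicle arrays and -0.93, -0.92 and -0.98 on the AMI arrays, below detection throughout. For Psmb9, the counterpart of Psmb6, hippocampal values were -0.42, -0.31 and -0.15 on the vehicle arrays and -0.51, -0.04 and 0.19 on the AMI arrays and cortical values -0.44, -0.49 and -0.51 on the vehicle arrays and -0.48, -0.32 and -0.55 on the AMI arrays. The groups overlapped in both tissues, with differences of 0.18 ± 0.18 and 0.03 ± 0.09. Psmb10, the counterpart of Psmb7, had 2.82, 2.77 and 2.46 on the vehicle arrays and 2.71, 2.77 and 2.82 on the AMI arrays in hippocampus and 2.72, 2.71 and 2.42 on the vehicle arrays and 2.57, 2.52 and 2.48 on the AMI arrays in cortex, again overlapping, with differences of 0.09 ± 0.12 and -0.09 ± 0.10. The list of antigen presentation and interferon genes gave no adjusted call for treatment either, with 8 of 11 genes on the array tested in hippocampus and 6 in cortex. Of this list, Tap1 and Ifit1 were detected on no array.

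The start regions of this catalytic pair are shown because its members are induced by different routes, Psmb5 through factors that bind antioxidant response elements and Psmb8 through interferon. The capitals mark TGACNNNGC, the core of that element, in Psmb5 (GRCm38.p6, chr14:54617946-54618245, minus strand) and TTCNNNGAA, the STAT motif, in Psmb8 (GRCm38.p6, chr17:34197945-34198244, plus strand):
Psmb5: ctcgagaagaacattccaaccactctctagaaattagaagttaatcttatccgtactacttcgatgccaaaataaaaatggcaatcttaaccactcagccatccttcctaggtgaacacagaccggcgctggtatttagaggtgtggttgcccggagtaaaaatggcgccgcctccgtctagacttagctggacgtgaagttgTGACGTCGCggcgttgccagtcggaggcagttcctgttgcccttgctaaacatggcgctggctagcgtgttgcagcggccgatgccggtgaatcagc
Psmb8: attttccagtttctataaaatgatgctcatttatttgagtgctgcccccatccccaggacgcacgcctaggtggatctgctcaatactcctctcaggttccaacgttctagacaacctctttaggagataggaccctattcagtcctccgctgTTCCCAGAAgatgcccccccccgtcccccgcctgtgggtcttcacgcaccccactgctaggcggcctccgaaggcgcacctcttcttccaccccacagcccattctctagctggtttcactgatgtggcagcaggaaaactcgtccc

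A RefSeq window of this length was found for 35 of the 40 subunits, and those of Psmb1, Psmb2, Psmb7, Psmc3 and Psmd7 are missing from the table. A gene was counted once if any of its windows held a motif. Read on both strands, TGACNNNGC stood in 6 of 35 subunits (17.1%: Psmb5, Psmb6, Psmc6, Psmd9, Psmd12, Psme4) and in 14.0% of all 27025 genes with a window. CCAAT stood in 13 (37.1%), among them Psma1, Psma2, Psma3, Psma6, Psma7 and Psme3, and in 41.1% of all genes with a window. GAAANNGAA, the core of the interferon response element, stood in 6 (17.1%: Psmb3, Psmb4, Psmc2, Psmd4, Psmd9, Psme1) against 9.76%. The interferon-inducible Psmb8, Psmb9, Psmb10 and Psme2 had windows without it. TTCNNNGAA stood in 2 (5.71%), Psmb8 and Psmd2, against 9.55%. These are letter matches only, and in the subunit windows no match of a motif overlapped a match of another.

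The remaining activators overlapped between treatments. Psme1 and Psme2 form the interferon-inducible cap of the immunoproteasome. Psme1 had 2.49, 2.73 and 2.86 on the vehicle arrays and 2.61, 2.77 and 2.90 on the AMI arrays in hippocampus and 2.33, 2.23 and 1.98 on the vehicle arrays and 1.91, 2.32 and 1.81 on the AMI arrays in cortex, with differences of 0.07 ± 0.13 and -0.16 ± 0.14. Psme2 had 0.16, 0.44 and 0.36 on the vehicle arrays and 0.09, 0.39 and 0.32 on the AMI arrays in hippocampus and 0.20, 0.01 and -0.08 on the vehicle arrays and 0.04, 0.34 and 0.06 on the AMI arrays in cortex, with differences of -0.06 ± 0.13 and 0.10 ± 0.12. The groups overlapped for both partners in both tissues. Psme4, a large single-chain activator that acts on histones, had 3.05, 2.84 and 2.69 on the vehicle arrays and 2.95, 2.75 and 2.69 on the AMI arrays in hippocampus and 2.78, 2.95 and 3.09 on the vehicle arrays and 2.98, 3.01 and 2.88 on the AMI arrays in cortex. Its differences were -0.07 ± 0.13 and 0.01 ± 0.10.

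The spread between arrays of 1 group was shared by many subunits in cortex. On cortical vehicle array 3, 0 of 13 core subunits lay above their mean over the 6 cortical arrays, with a median deviation of -0.23, while the 5 tested ATPases all lay above theirs (median 0.08). On cortical vehicle array 1, 13 of 13 core subunits and 29 of 34 subunits lay above (core median 0.09), and on array 2, 10 of 13 core subunits did. The median of all tested probes deviated by -0.01 on each of these arrays. AMI array 3 resembled vehicle array 3 in its ATPases, 5 of 5 above, but not in its core subunits, of which 4 of 13 lay above (median -0.01). On AMI array 2, 0 of 5 ATPases lay above. The SD of log2 signals, by which each array was scaled, was 1.42 on vehicle array 3 and AMI array 3 and 1.68 on AMI array 2. The part of this scaling in the cortical shifts was not tested. In hippocampus the most shifted array was vehicle array 1, with 11 of 13 core subunits above (median 0.15). Without cortical vehicle array 3, subunits with an unadjusted p of 0.05 or less for treatment in cortex numbered 5 instead of 1 (background 15.1% of probes), and the median difference was -0.05.

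**Figure D4:**
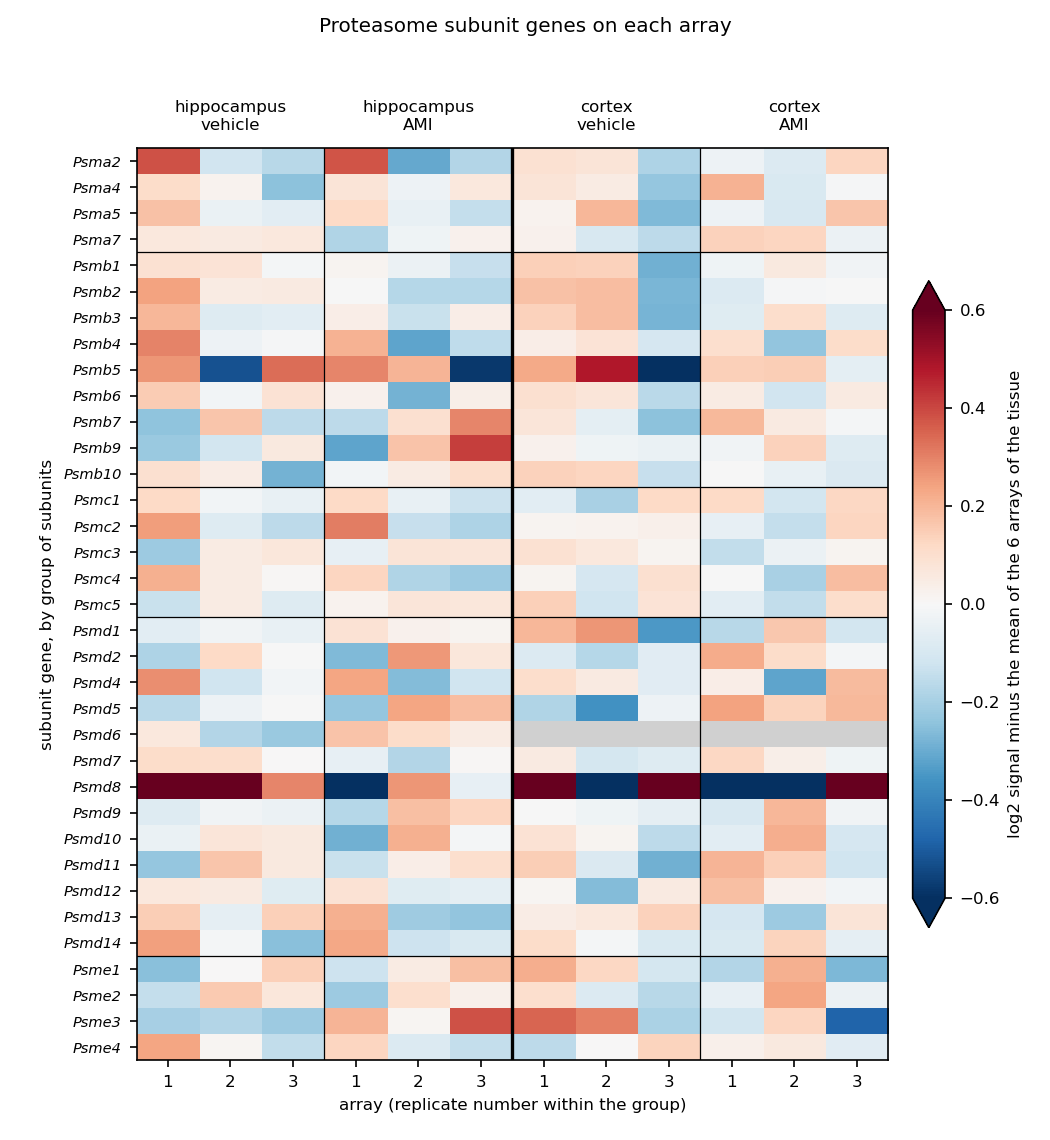
Deviation of each tested subunit (rows, grouped by role) from its mean over the 6 arrays of the tissue, on each array (columns), in log2 units from -0.6 to 0.6 as colour. Cortical vehicle array 3 is low for all 13 core subunits and high for all 5 ATPases, and Psmd6 is grey in cortex, where it was not tested.

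Between the tissues, subunits differed at about the rate of all genes. In vehicle mice 9 of 35 subunits (25.7%) passed the adjusted threshold, against 20.7% of 13104 probes. Of these, 7 (20%) were higher in hippocampus, where the background was 12.3%, and 2 (5.71%) were lower, where it was 8.46%. In AMI mice, measured on other arrays, 8 of 35 (22.9%) passed against 26.6% of 13193 probes, with 7 (20%) higher against 14.7% and 1 (2.86%) lower against 12.0%. The median tissue difference of the subunits was 0.12 in vehicle mice (23 of 35 higher) and 0.09 in AMI mice (21 of 35), beside 0.04 and 0.02 over all tested probes. By role, the medians in vehicle and AMI mice were 0.20 and 0.28 for the beta subunits, 0.26 and 0.12 for the non-ATPases, 0.07 and -0.04 for the ATPases, and 0.03 and -0.08 for the alpha subunits.

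The count depended on single arrays and on the scaling. With any 1 of the 6 arrays left out, 1 to 7 subunits passed in vehicle mice (1, 2 and 3 without hippocampal vehicle array 2, 3 and 1, and 3 and 5 without cortical vehicle array 2 and 1), and 2 to 11 in AMI mice (2 without cortical AMI array 1). The background moved too, from 10.2% to 21.7% of probes in vehicle mice (10.2% without hippocampal vehicle array 2) and from 12.8% to 29.5% in AMI mice (12.8% without cortical AMI array 1). With median centring, which moved the median of all probes to 0.20 and 0.21, the calls were 15 higher and 0 lower in vehicle mice (background 22.5%) and 2 higher and 0 lower in AMI mice (10.3%). With quantile normalization they were 8 higher and 2 lower (21.1%), and 9 higher and 4 lower (36.5%). The hippocampal and cortical arrays were exported with different analysis software and deposited as separate tables, so tissue and export cannot be told apart. All 10 microglial markers were higher in hippocampus in both treatments (5 passed each time, medians 0.52 and 0.47), with mean log2 levels of 0.97 to 1.40 on hippocampal and 0.54 to 0.76 on cortical arrays and none undetected. All 6 oligodendrocyte markers were lower, 0 passing in vehicle and 4 in AMI mice. All 4 tested striatal markers were lower in hippocampus too, with 4 passing in vehicle and 3 in AMI mice (medians -1.95 and -1.60). The mean log2 level of the 5 striatal genes on the array ran from 0.06 to 0.43 on hippocampal and from 1.33 to 1.82 on cortical arrays. The part of all these cells in the subunit differences was not tested.

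The scaffold subunit Psmd1, onto which ubiquitin receptors dock, was higher in hippocampus than in cortex in both treatments. Its values were 1.28, 1.32 and 1.30 on the hippocampal arrays and 0.87, 0.94 and 0.29 on the cortical arrays of vehicle mice, and 1.42, 1.36 and 1.36 on the hippocampal and 0.48, 0.83 and 0.54 on the cortical arrays of AMI mice. All hippocampal arrays lay above all cortical arrays. The difference was 0.59 ± 0.16 in vehicle (adjusted p = 0.035) and 0.78 ± 0.12 in AMI mice (adjusted p = 0.00159). In AMI mice it passed in all 16 alternatives, and in vehicle mice the call was lost in 6 of 16.

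Psme1 of the interferon-inducible activator was likewise higher in hippocampus, by 0.51 ± 0.13 (adjusted p = 0.029) in vehicle and 0.76 ± 0.15 (adjusted p = 0.0056) in AMI mice, and again passed in AMI mice with any 1 array left out. The call was lost in 5 of 16 alternatives in vehicle mice and in 1 of 16 in AMI mice. In both treatments its hippocampal arrays, given above, all exceeded the cortical ones. Its partner Psme2, whose gene also lies on chromosome 14, differed by 0.27 ± 0.12 and 0.12 ± 0.13 (adjusted p = 0.131 and 0.526). A second Psme1 probe gave 0.36 ± 0.13 and 0.38 ± 0.13 (adjusted p = 0.0937 and 0.0526). The inducible beta subunit Psmb9 differed by 0.18 ± 0.10 and 0.33 ± 0.17 and Psmb10 by 0.06 ± 0.13 and 0.25 ± 0.10, and neither passed. For a second Psmb10 probe the tissues did not overlap in either treatment. It had 2.80, 2.80 and 2.66 on the hippocampal and 2.47, 2.49 and 2.15 on the cortical arrays of vehicle mice. In AMI mice it had 2.66, 2.89 and 2.62 on the hippocampal and 2.42, 2.52 and 2.36 on the cortical arrays.

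Psmd14, the lid enzyme that removes ubiquitin chains, had 2.0, 1.76 and 1.53 on the hippocampal arrays and 1.38, 1.24 and 1.16 on the cortical arrays of vehicle mice, and 1.99, 1.65 and 1.68 on the hippocampal and 1.16, 1.40 and 1.20 on the cortical arrays of AMI mice. Tissues did not overlap in either treatment, with differences of 0.50 ± 0.13 (adjusted p = 0.0305) and 0.53 ± 0.12 (adjusted p = 0.0132). The calls were lost in 7 of 16 alternatives in vehicle and 1 of 16 in AMI mice. Psmd11, a further lid subunit, had 0.90, 1.28 and 1.18 on the hippocampal arrays and 0.81, 0.56 and 0.35 on the cortical arrays of vehicle mice, and 1.0, 1.16 and 1.22 on the hippocampal and 0.88, 0.81 and 0.53 on the cortical arrays of AMI mice, without overlap. It differed by 0.54 ± 0.15 (adjusted p = 0.0331) and 0.40 ± 0.12 (adjusted p = 0.0394), with calls lost in 5 and 8 of 16 alternatives. Psmd7, the lid partner of Psmd14, had 3.56, 3.55 and 3.46 on the hippocampal arrays and 3.25, 3.08 and 3.11 on the cortical arrays of vehicle mice, and 3.41, 3.28 and 3.46 on the hippocampal and 3.33, 3.23 and 3.17 on the cortical arrays of AMI mice. It passed in vehicle mice (0.37 ± 0.09, adjusted p = 0.0276) and did not in AMI mice (0.14 ± 0.10, adjusted p = 0.327), where the tissues overlapped. The call was lost in 6 of 16 alternatives, among them the mean of the gene's detected probes. A second Psmd7 probe was also detected on all 12 arrays. Psmd6 had -0.40, -0.63 and -0.67 on the hippocampal arrays and -0.74, -0.93 and -0.81 on the cortical arrays of vehicle mice, and -0.30, -0.36 and -0.41 on the hippocampal and -0.91, -0.86 and -0.65 on the cortical arrays of AMI mice. It entered the test through its detection in hippocampus, with 2 of 6 cortical values above detection, so the cortical level is largely a bound and its call is no support for a difference. The difference was 0.46 ± 0.11 in AMI mice (adjusted p = 0.013), which is 1 of the 7 higher calls there, and 0.26 ± 0.11 in vehicle mice (adjusted p = 0.129). Whether these differ was not tested.

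In the core, the probe used for Psmb2 was higher in hippocampus by 0.59 ± 0.14 (adjusted p = 0.023) in vehicle and 0.45 ± 0.10 (adjusted p = 0.0103) in AMI mice. Its values were 4.56, 4.38 and 4.38 on the hippocampal arrays and 4.00, 4.01 and 3.53 on the cortical arrays of vehicle mice, and 4.33, 4.17 and 4.17 on the hippocampal and 3.73, 3.81 and 3.81 on the cortical arrays of AMI mice, with no overlap. Its second detected probe did not share this, with differences of 0.00 ± 0.13 and -0.11 ± 0.10. The Psmb2 call was lost in 4 of 16 alternatives in vehicle and 3 of 16 in AMI mice. Psmb3, another non-catalytic beta subunit, had 4.59, 4.33 and 4.35 on the hippocampal arrays and 4.10, 4.15 and 3.66 on the cortical arrays of vehicle mice, and 4.45, 4.28 and 4.45 on the hippocampal and 3.88, 4.07 and 3.88 on the cortical arrays of AMI mice. It passed in AMI mice (0.45 ± 0.11, adjusted p = 0.0134) and had a difference of 0.44 ± 0.15 in vehicle mice (adjusted p = 0.064). Its call in AMI mice was lost in 3 of 16 alternatives, and in vehicle mice it passed in 4 of 16. The catalytic Psmb6 passed in vehicle mice (0.40 ± 0.11, adjusted p = 0.0317), a call lost in 7 of 16 alternatives, and had 0.28 ± 0.12 in AMI mice (adjusted p = 0.107). Psmb5 differed by 0.71 ± 0.37 and 0.52 ± 0.20 without passing (adjusted p = 0.2 and 0.0795).

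Psmc5 was the 1 subunit that passed the adjusted threshold as lower in hippocampus in both treatments. Its values were 3.54, 3.71 and 3.59 on the hippocampal arrays and 4.34, 4.06 and 4.27 on the cortical arrays of vehicle mice, and 3.69, 3.74 and 3.73 on the hippocampal and 4.12, 4.03 and 4.30 on the cortical arrays of AMI mice, with all hippocampal arrays below all cortical ones. The difference was -0.60 ± 0.11 (adjusted p = 0.00691) in vehicle and -0.44 ± 0.11 (adjusted p = 0.0147) in AMI mice, and in vehicle mice it passed with any 1 array left out. In AMI mice the call was lost in 4 of 16 alternatives with the direction kept, and the direction reversed in 1 more. Median centring ended both calls, with -0.08 in vehicle mice (adjusted p = 0.799) and 0.10 in AMI mice (adjusted p = 0.821), which are -0.28 and -0.11 relative to the median of all probes. A second Psmc5 probe gave -0.26 ± 0.13 and -0.04 ± 0.11, neither passing. The other 4 tested ATPases differed by -0.06 to 0.13 in vehicle and -0.09 to 0.18 in AMI mice, and none passed.

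Psme3 was lower in hippocampus in vehicle mice, with a difference of -0.60 ± 0.15 (adjusted p = 0.0245), and differed by 0.09 ± 0.17 in AMI mice (adjusted p = 0.738). Its vehicle values ran from 2.39 to 2.43 in hippocampus and from 2.66 to 3.23 in cortex, while its AMI values overlapped. The call in vehicle mice was lost in 6 of 16 alternatives, all with the same direction. For the other subunits that passed in 1 treatment alone and were tested for the interaction (Psmb3, Psmb6, Psmd7), its unadjusted p was above 0.05. The Psme3 differences come from the same 12 arrays as its interaction above and are no further evidence for it. Psme4 differed by -0.08 ± 0.13 and -0.16 ± 0.11 between the tissues. Psmd8 differed by 1.20 ± 0.64 and 0.89 ± 0.68, with adjusted p = 0.219 and 0.369.

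**Figure D5:**
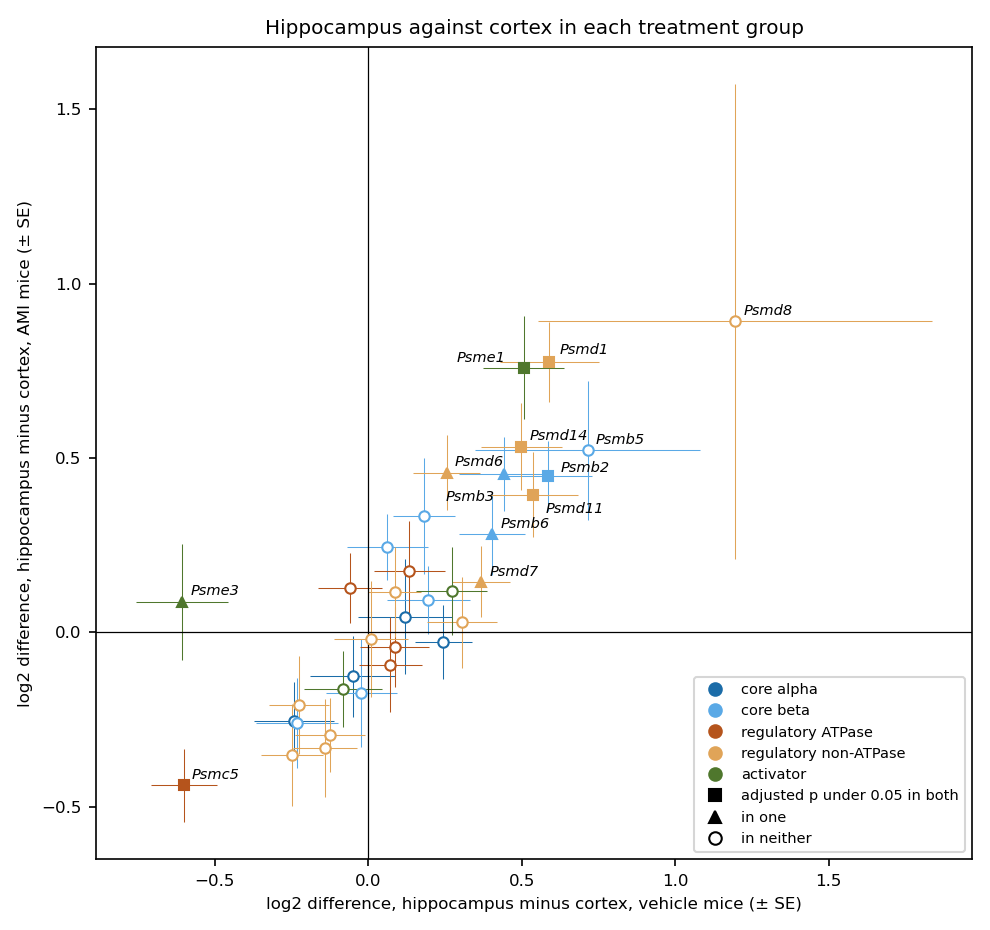
Log2 difference of hippocampus minus cortex of each tested subunit in vehicle mice (x axis) against that in AMI mice (y axis), from separate arrays. Squares passed the adjusted threshold in both treatments, triangles in 1 and open circles in neither. Psmd1, Psme1, Psmb2, Psmd11 and Psmd14 lie high in both and Psmc5 low in both, and Psme3 is low in vehicle mice alone.

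Several subunits have more than 1 detected probe, and 4 (Psmb2, Psmb7, Psmd10 and Psmd12) had probes that pointed in opposite directions between tissues in at least 1 treatment with more than 0.3 between them. For Psmb7, the probe used gave -0.23 ± 0.13 and -0.26 ± 0.13 in vehicle and AMI mice and a second probe -0.34 ± 0.13 and -0.38 ± 0.11, whereas the third gave 0.62 ± 0.15 (adjusted p = 0.0217) and 0.69 ± 0.11 (adjusted p = 0.00195). Its values were 2.68, 2.49 and 2.47 on the hippocampal arrays and 2.20, 1.95 and 1.62 on the cortical arrays of vehicle mice, and 2.56, 2.44 and 2.63 on the hippocampal and 1.86, 1.99 and 1.73 on the cortical arrays of AMI mice, without overlap, while the tissues overlapped for the probe used. The first 30 bases of the 3 probes, with G and C in capitals, follow:
Psmb7 probe used: aaGGGGttCaaGCtCCCGaaaGCtCGGaaa
Psmb7 second probe: GGGGGGaGtaGatGttaCtGGaCCtCatCt
Psmb7 other probe: GCataCCaCCCCtaCCCCaaCCCCattCta

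For the lid subunit Psmd12, the probe used had 2.80, 2.78 and 2.67 on the hippocampal arrays and 2.96, 2.67 and 3.00 on the cortical arrays of vehicle mice, and 2.82, 2.67 and 2.68 on the hippocampal and 3.14, 2.97 and 2.93 on the cortical arrays of AMI mice, and differences of -0.12 ± 0.11 and -0.29 ± 0.11. The tissues overlapped in vehicle mice and not in AMI mice. Its second, dim probe gave 0.34 ± 0.13 and 0.35 ± 0.13. For the chaperone Psmd10 the probe used had 1.72, 1.83 and 1.81 on the hippocampal arrays and 2.15, 2.08 and 1.89 on the cortical arrays of vehicle mice, and 1.48, 1.96 and 1.75 on the hippocampal and 1.99, 2.29 and 1.95 on the cortical arrays of AMI mice. The tissues overlapped in AMI mice and not in vehicle mice. Its 3 probes gave -0.25, 0.02 and 0.16 in vehicle mice and -0.35, -0.10 and -0.03 in AMI mice. No tissue direction is given for these 4 genes, and that of Psmb2 above is of the probe used. Which transcripts the probes read was not tested.

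Outside the subunits, 25 of 32 listed genes for assembly, associated proteins and ubiquitin were on the array, and 23 were tested. For treatment 0 passed in either tissue. At an unadjusted p of 0.05 or less there were 0 in hippocampus and 1 in cortex. Nfe2l1, the transcription factor that raises proteasome genes when proteasomes fail, differed by -0.11 in hippocampus and -0.24 in cortex (adjusted p = 0.781). Between tissues 5 of 23 passed in vehicle mice, where 20.7% of all probes did, and 6 of 23 in AMI mice, where 26.6% did, so both counts were near the background. In vehicle mice the assembly chaperone Psmg2 (0.50) and AI314180 (0.57), which codes for Ecm29, a tie between core and regulatory particle, were higher in hippocampus. The deubiquitinase Uchl5 (-0.60), the segregase Vcp (-0.38) and the autophagy receptor Sqstm1 (-0.74) were lower. In AMI mice Shfm1 (0.69), a regulatory-particle subunit by another symbol, the deubiquitinase Usp14 (0.61) and AI314180 (0.70) were higher. The core-assembly factor Pomp (-0.35), Uchl5 (-0.70) and Sqstm1 (-0.80) were lower. Of these genes, AI314180, Uchl5 and Sqstm1 passed in both treatments.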

How the data were processed

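Total RNA of hippocampus and cortex was measured on Illumina mouse Ref-8 arrays. The authors deposited, for each tissue, a table of mean bead intensity per probe, exported without normalization, with the p-value of each detection call. Per the labels and the file headers the hippocampal table came from BeadStudio 3.4 and the cortical one from GenomeStudio 1.1.1. All 24 deposited columns used belong to the 12 arrays, and 0 columns were of other samples. An array has no read depth, so the number of arrays limits the precision. Groups were taken from the labels.

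The log2 of the deposited intensity was centred and divided by its SD over all probes of an array and rescaled by the mean of those SDs. The study's methods name z normalization without a formula, so the log base and the formula are choices made here. Probes with a detection p-value of 0.05 or less on at least 3 of 6 arrays were tested with limma 3.58.1 (R 4.3.3), with Benjamini-Hochberg adjustment and a threshold of 0.05. The interaction of tissue and treatment was fitted on all 12 arrays. The same code was tested on simulated data. Figures and sequence counts used Python 3.11.15, numpy 2.4.6, pandas 2.3.3 and matplotlib 3.10.9. Promoter windows came from RefSeq on GRCm38.p6.

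Between equal replicate numbers, deviations from the group means correlated at 0.61, 0.30 and 0.29 in hippocampus and at -0.06, 0.33 and 0.33 in cortex. Unequal numbers ran from -0.47 to 0.28 in hippocampus and from -0.42 to 0.27 in cortex. In hippocampus every equal pair lay above every unequal one, the closest by a narrow margin, and in cortex this did not hold. The correlations do not settle whether the numbers pair arrays. The main fits used no pairing in either tissue, and the replicate number entered as a block only as an alternative. Values of every array were given for subunits past the adjusted threshold, those with an unadjusted p of 0.05 or less for treatment, the catalytic pairs, the activators, Psmc5 and Psmb2, which the study lists, and genes whose detected probes differed in direction by more than 0.3. Some genes of the lists are not reported here by name. Members, lists and this rule were chosen with earlier results of these data known.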

Additional observations from a re-analysis of the deposited data

How the results depend on the processing

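No subunit passed the adjusted threshold for treatment or for the interaction under any alternative tried. Without an adjusted call, the count of subunits with an unadjusted p of 0.05 or less was 2 in hippocampus and became 0 with median centring, 1 with background correction by neqc, with a trended robust fit and with all 12 arrays in one fit, 4 with the replicate block, 6 with array weights (background 9.91% of probes) and 8 without both arrays numbered 1 (6.88%, chosen after seeing the data). In cortex it was 1 and became 0 with a stricter filter (detection p up to 0.01 on every array), 2 without a detection filter, with a trended robust fit, with the replicate block, with the methods' t-test and with the mean of a gene's probes, and 8 with array weights (22.8%). For the interaction it was 1 and became 0 with median centring, 2 without a detection filter, with the replicate block and with the mean of probes, and 9 with array weights (20.0%). Between tissues, 9 adjusted calls in vehicle mice became 15 with median centring, 14 with array weights and 5 with the replicate block. Whether equal replicate numbers of the 2 tissues come from the same mouse is not stated. The 8 calls in AMI mice became 2 with median centring, 13 with quantile normalization and 21 with array weights. Between tissues the background was 35.2% and 50.9% with array weights, 22.5% and 10.3% with median centring, 15.4% with the block in vehicle mice and 36.5% with quantile normalization in AMI mice.

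Leaving out 1 array at a time gave 1 to 8 subunits in hippocampus (background 1.41% to 7.29%), 1 to 5 in cortex (2.90% to 15.1%), 1 to 2 for the interaction (1.72% to 7.54%), 1 to 7 between tissues in vehicle mice (10.2% to 21.7%) and 2 to 11 in AMI mice (12.8% to 29.5%). The median difference of the subunits then ran from -0.068 to 0.022 in hippocampus, -0.05 to 0.05 in cortex, 0.04 to 0.17 in vehicle and 0.07 to 0.12 in AMI mice between tissues, and -0.11 to 0.021 for the interaction. With median centring it was 0.069 in hippocampus, 0.11 in cortex, 0.53 in vehicle and 0.48 in AMI mice, and with neqc 0.24 and 0.17 between tissues.

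Reversed directions were Psmb2 in cortex (-0.06, against 0.054 with median centring and -0.21 to 0.018 with an array left out, above 0 without vehicle array 1 or 2), Psmc5 in cortex (0.054 with median centring) and between tissues in AMI mice (0.10), and Psme3 between tissues in AMI mice (-0.090 without cortical AMI array 3). The cause was not tested. Over the named genes, 426 of 528 recomputed values kept direction and side of the threshold, 78 were weaker and 18 stronger. Slides were not given, so a slide block was not run. With 3 arrays against 3, an exact permutation test cannot go below p = 0.1, and dim probes are limited by background that was not subtracted.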
